A study of Mus musculus with 12 samples.

Results

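The genes described here are 10 genes of glycogen synthesis and breakdown, namely Gys1, Gys2, Gbe1, Pygl, Pygb, Pygm, Pgm1, Pgm2, Ugp2 and Ppp1r3c. They were listed by name for their place in the pathway, with earlier results of these data known, and were found by the Ensembl gene behind each symbol among the 37681 genes of the deposited count table, in which all 10 were present. RNAseq was performed on a thin outer slice of kidney cortex from 3 TRACK (TG+) and 3 transgenic negative (TG-) littermates, all C57BL/6 males 18 months old and untreated, with both kidneys of each mouse sequenced separately, for 12 libraries in all. The TG+ mice, whose genotype is TRACK/γ-HIF1αM3, carry a mutated, constitutively active HIF1α (hypoxia inducible factor 1α) that is driven by the γ-glutamyl transferase promoter, so that its expression is directed to the proximal tubule, while the cortex slice also holds other nephron segments, vessels, stroma and immune cells. The TG- mice lack the transgene. A mouse is the unit of comparison, gene positions are those of GENCODE M21 (GRCm38), and values are listed for the TG+ mice 43-29, 43-49 and 43-75 and for the TG- mice 43-26, 43-50 and 43-76, in these orders.

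Glycogen is a branched polymer of glucose that serves as a cell's glucose store. Glucose 6-phosphate is turned into glucose 1-phosphate by phosphoglucomutase (Pgm1, with its relative Pgm2) and then into UDP-glucose by UDP-glucose pyrophosphorylase (Ugp2). Glycogen synthase (Gys1, the muscle type found in most tissues, and Gys2, the liver type) adds UDP-glucose to a growing chain, the branching enzyme (Gbe1) makes the branch points, and glycogen phosphorylase (Pygl, liver type, Pygb, brain type, and Pygm, muscle type) removes glucose units again. Ppp1r3c encodes protein targeting to glycogen (PTG), a subunit that brings protein phosphatase 1 to glycogen, where the phosphatase switches glycogen synthase on and phosphorylase off by removing phosphate. Clear cell renal cell carcinoma owes its name to cells whose glycogen and lipid are washed out in histology, and glycogen in healthy kidney cortex is scarce.

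HIF1α pairs with HIF1β and binds DNA at hypoxia response elements, whose core is ACGTG or GCGTG. The DNA upstream of the start site is shown for the 4 genes that passed the full threshold of the comparison given further on, as the stretch in which this core can be looked for. RefSeq (build GRCm38.p6) gave a window of 250 bases before to 50 after the start for 9 of the 10 genes, and Gys2 was not among them. The RefSeq start of Pygl lies inside the gene as GENCODE M21 places it (70190811 to 70231488 on the minus strand). The printed bases of Pygl and its match positions thus refer to the RefSeq start alone, and are not upstream of the GENCODE gene. For each gene the 200 bases that begin 250 bases before the start and end 51 before it are printed 5′ to 3′ on the gene's own strand. Capitals mark matches to ACGTG or GCGTG on either strand, so that CACGT and CACGC are the same motifs read on the opposite strand.
Ppp1r3c (chr19:36736655-36736854, minus strand): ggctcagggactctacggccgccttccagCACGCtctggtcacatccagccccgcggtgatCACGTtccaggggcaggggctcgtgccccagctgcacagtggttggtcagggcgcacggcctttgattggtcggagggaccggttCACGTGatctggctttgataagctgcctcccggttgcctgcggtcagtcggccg
Pygl (chr12:70227734-70227933, minus strand): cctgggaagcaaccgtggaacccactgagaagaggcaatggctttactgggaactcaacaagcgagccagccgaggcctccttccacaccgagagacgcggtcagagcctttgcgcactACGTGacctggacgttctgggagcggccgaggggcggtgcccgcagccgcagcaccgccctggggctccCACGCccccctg
Pgm1 (chr4:99929201-99929400, plus strand): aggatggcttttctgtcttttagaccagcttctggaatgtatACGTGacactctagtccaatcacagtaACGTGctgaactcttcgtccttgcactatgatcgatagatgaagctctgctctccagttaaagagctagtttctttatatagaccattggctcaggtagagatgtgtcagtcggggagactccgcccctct
Gbe1 (chr16:70313699-70313898, plus strand): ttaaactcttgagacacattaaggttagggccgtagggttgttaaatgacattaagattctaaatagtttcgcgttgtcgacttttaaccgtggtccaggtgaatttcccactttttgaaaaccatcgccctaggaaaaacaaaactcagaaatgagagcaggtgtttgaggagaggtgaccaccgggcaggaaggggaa

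The window of Ppp1r3c held 4 matches, at -221, -189, -104 and -103, where a position is that of the leftmost base of the match. Its last pair overlap by reading the palindrome CACGTG on both strands, so they are a single place in the DNA. Pygl held 2 matches, at -131 and -62, and Pgm1 held 2, at -208 and -181. The Gbe1 and Gys1 windows held none, which says only that these letters are not in these windows. Among the others, Pygb and Pygm held 2 each, Pgm2 held 1, and Ugp2 held 6 in a first window, 2 of them overlapping in CACGCGTG, and 0 in a second window from another start site. A match was thus present in 7 of the 9 genes, and 2 or more in 6 of the 9, with Ugp2 counted by its first window, while the shares that follow are over single windows. Over all 32851 windows of the same length in that table, 43.8% held at least 1 match (19.6% ACGTG and 32.4% GCGTG), 20.6% held 2 or more and 3.90% held 4 or more, so that a match by itself is common. Of the genes with matches, Ppp1r3c, Pygl and Pgm1 passed the threshold described next, and Pygb, Pygm, Pgm2 and Ugp2 did not. Of those without a match in their windows, Gbe1 passed and Gys1 did not. Binding of HIF1α to these windows was not tested.

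The comparison asks which glycogen genes differ in mRNA level between TG+ and TG- kidney cortex. A gene was called at the study's threshold, which asks for more than a 2-fold difference in either direction (a fold change over 2 or under 0.5) at an adjusted p below 0.01. The p-values are those of the quasi-likelihood test in edgeR, adjusted by the Benjamini-Hochberg method over all 19399 genes tested. Levels are normalized CPM, the reads of a gene relative to the scaled total of its library, with the 2 kidneys of a mouse summed. By this threshold 4 of the 10 genes were higher in TG+ cortex, namely Ppp1r3c (18.8-fold), Gbe1 (2.51-fold), Pygl (2.30-fold) and Pgm1 (2.07-fold), and 0 were lower, against 3.77% of all tested genes called higher and 0.211% called lower. With an adjusted p below 0.05 and no limit on the fold, 6 were higher (the same 4 with Gys1 and Pgm2), 1 was lower (Gys2) and 3 were neither (Ugp2, Pygb and Pygm), against 15.4% and 10.9% of all tested genes. Over 15 alternatives the number higher at that level was 5 to 8, since Pgm2, Ugp2 and Pygb changed sides as given with each gene, and the number lower was 1 in each. The levels of the 3 TG+ mice lay wholly above those of the 3 TG- mice for 7 of the 10 genes and wholly below for 1, against 23.4% and 20.8% of all tested genes. The median log2 fold change was 0.68 over the 10 genes and 0.01 over all tested genes. All 10 passed the filter on low counts, and the fewest reads of any of them in a mouse were 77.

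Library totals lay between 21888584 and 33704850 reads, and those of a mouse between 48052131 and 60506785. The endogenous gene Hif1a did not pass the test (-0.12 on the log2 scale, edgeR adjusted p = 0.343), and whether reads of the transgene were counted to it is not given in the sources used here, so it is no check of the labels. In a bulk sample, fewer cells of a type and less RNA per cell cannot be told apart. Of 20 proximal tubule markers, all tested, 11 were lower in TG+ cortex at an adjusted p below 0.05, beside 10.9% of all tested genes, and 0 were higher. The summed level of the 20 was 43530 to 45830 CPM in TG+ mice against 56250 to 61500 in TG- mice. In the other direction, where 15.4% of all tested genes were higher, 7 of 12 immune markers were higher (summed level 163 to 185 against 92.8 to 119.8 CPM). So were 8 of 8 endothelial markers (592 to 632 against 347 to 451 CPM), 5 of 7 stromal markers (225 to 311 against 139 to 162 CPM) and 2 of 5 smooth muscle markers (103.7 to 153 against 69.8 to 100.6 CPM). Of 6 markers of tubule injury 4 were higher, and of 12 markers of other nephron segments 0 passed in either direction. None of these lists had a gene at 0 reads in every mouse. The summed levels of the proximal tubule, immune, endothelial, stromal and smooth muscle lists did not overlap between the genotypes. Those of the injury list (653 to 776 against 543 to 679 CPM) and of the other nephron segments (3990 to 5273 against 4267 to 4375 CPM) did. The part of these cell types in the results for the glycogen genes was not tested.

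**Figure D1:**
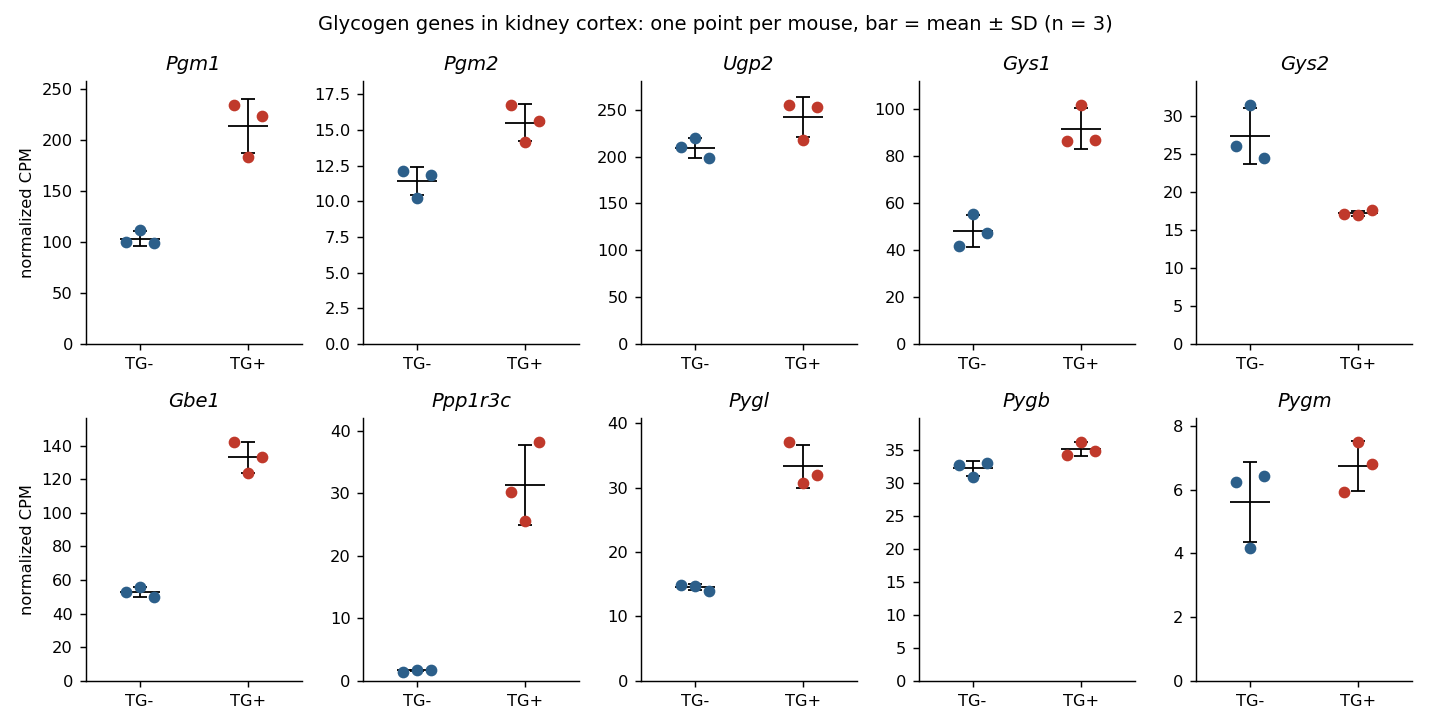
Normalized CPM (vertical axes, each from 0 and on its own scale) of the 10 glycogen genes in TG- (blue) and TG+ (red) kidney cortex, with a point for each mouse and black bars for the mean ± SD of 3 mice. The TG+ points lie above the TG- points in 7 panels and below them in that of Gys2, while the points of Ugp2 and Pygm overlap.

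Among the genes that supply UDP-glucose, Pgm1 rose, while the call of Ugp2, the step after it, depended on the fit. Pgm1 (ENSMUSG00000025791, chromosome 4 from 99929414 to 99987294) encodes the main phosphoglucomutase, and it is the gene that older mouse nomenclature called Pgm2. Its level was 234, 184 and 223 CPM in the TG+ mice and 99.9, 112 and 98.9 CPM in the TG- mice. The groups did not overlap, and 43-49 was the lowest of the TG+ mice by a wide margin. The mean was 214 ± 26.7 CPM against 103.5 ± 7.11 CPM (SD, n = 3 mice), a log2 fold change of 1.05 (SE 0.10, edgeR adjusted p = 0.000366). Because its fold lay so near 2, the fold limit was missed without 43-29, where the log2 fold change was 0.97. Itgb3bp, on the opposite strand, overlaps Pgm1 and also rose (0.80, edgeR adjusted p = 0.000385), from 15.4 to 17.3 CPM in TG- mice to 26.0 to 29.8 CPM in TG+ mice. Use of the strand in counting is not given in the sources used here, so reads from the shared stretch of such pairs cannot be assigned with certainty.

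Pgm2 (ENSMUSG00000029171, chromosome 5 from 64092950 to 64128351), a relative of Pgm1 that acts mainly on pentose phosphates, stood at 16.7, 14.2 and 15.6 CPM in TG+ mice and at 12.1, 10.3 and 11.9 CPM in TG- mice. The groups did not overlap, but the lowest TG+ mouse lay only 0.23 above the highest TG- mouse on the log2 scale. The log2 fold change was 0.44 (SE 0.10, edgeR adjusted p = 0.0130), and with the first kidney of each mouse alone the adjusted p was 0.0800. Ugp2 (ENSMUSG00000001891, chromosome 11 from 21321138 to 21371201) was the most abundant of the 10 genes per length in both groups, at 41.3 ± 3.65 RPKM in TG+ and 36.7 ± 1.77 RPKM in TG- mice (SD, n = 3 mice). It was measured at 255, 217 and 253 CPM in the TG+ mice and at 210.0, 220.0 and 199 CPM in the TG- mice, so that the TG+ mouse 43-49 lay within the TG- range. Its log2 fold change was 0.21, with a 95% interval from 0.03 to 0.38 and an edgeR adjusted p of 0.0850. The adjusted p was below 0.05 under 5 alternatives: 0.018 without 43-49, 0.0441 with kidney 2 of each mouse alone, 0.00919 with scaling by library size alone, 0.00361 with each kidney as its own library and 0.00928 when the mouse was then kept as a random block (limma). At its depth of 9707 to 12715 reads per mouse, an increase above 1.31-fold lies outside that interval. Gm12043, on the opposite strand of Ugp2, was read at 5.08 to 7.95 CPM over the 6 mice.

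The 2 glycogen synthase genes moved in opposite directions. Gys1 (ENSMUSG00000003865, chromosome 7 from 45434844 to 45456619), the muscle-type synthase, was measured at 86.6, 101.8 and 86.9 CPM in TG+ mice and at 42.0, 55.5 and 47.4 CPM in TG- mice. The lowest TG+ mouse stood 0.64 above the highest TG- mouse on the log2 scale. With a mean of 91.7 ± 8.74 against 48.3 ± 6.82 CPM (SD, n = 3 mice), the increase was 1.90-fold, or 0.92 on the log2 scale (SE 0.11, 95% interval 0.67 to 1.18, edgeR adjusted p = 0.00110). It thus fell short of the fold limit alone, which it passed when libraries were scaled by their size alone (1.05) and when the TG- mouse 43-50, the highest of the TG- mice, was left out (1.03). Ruvbl2, which overlaps Gys1 on the opposite strand, rose by less (0.45, edgeR adjusted p = 0.00386), with 17.0 to 19.5 CPM in TG- and 24.3 to 26.4 CPM in TG+ mice.

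Gys2 (ENSMUSG00000030244, chromosome 6 from 142422613 to 142473109), the liver-type synthase, was the single gene of the 10 that fell. TG+ mice held 17.1, 17.0 and 17.6 CPM, nearly the same level in each, whereas TG- mice held 26.1, 31.5 and 24.5 CPM. The mean dropped from 27.4 ± 3.65 to 17.2 ± 0.317 CPM (SD, n = 3 mice), a log2 fold change of -0.67 (SE 0.10, 95% interval -0.89 to -0.44, edgeR adjusted p = 0.00242). Of the 20 proximal tubule markers, 11 were lower in the same mice at an adjusted p below 0.05, beside 10.9% of all tested genes, and 3 lay above 0. Their median log2 fold change was -0.41, and their part in the fall of Gys2 was not tested. Of the 9 liver markers that could be tested, 3 were higher at an adjusted p below 0.05, 0 were lower and 6 did not pass, beside 15.4% and 10.9% of all tested genes. The log2 fold changes of the 6 ran from -0.41 for Fga to 0.47 for Alb, and of all 9, 7 lay above 0 and 2 below. Over all 12 of the list the summed level was 563 to 630 CPM in TG+ against 423 to 544 CPM in TG- mice, most of it from Apob (0.23, edgeR adjusted p = 0.0959).

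Since levels of different genes can be compared only per length, the balance between isozymes was taken from the deposited RPKM values, which the authors had scaled to gene length and library. Gys1 made up 61.5%, 65.4% and 61.0% of the summed RPKM of Gys1 and Gys2 in the TG+ mice. In the TG- mice its share was 33.9%, 36.0% and 38.1%, so Gys2 was the more abundant synthase in every TG- mouse and Gys1 in every TG+ mouse. The means were 62.6% ± 2.39 and 35.98% ± 2.11 (SD, n = 3 mice), a difference of 26.7 points (2-sided exact permutation test, p = 0.1, the smallest that 3 against 3 mice can give). The gene lengths behind the deposited RPKM differ from the exons annotated in GENCODE M21, and per kilobase of those exons the share was 74.6% against 49.5%, so the majority of Gys2 in TG- mice depends on the length used while the shift does not.

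The same was computed for the phosphorylases and the phosphoglucomutases. Pygl made up 41.4% ± 3.54 of the summed phosphorylase RPKM in TG+ and 25.4% ± 1.62 in TG- mice, and Pygb 49.0% ± 2.29 and 63.4% ± 0.732. Both shares differed without overlap between the groups (2-sided exact permutation test, p = 0.1 each). Pygb was the most abundant phosphorylase mRNA per length in the TG- mice and in 43-49 and 43-75. In 43-29 its share of 46.5% was close to the 45.3% of Pygl, and the order of the 2 turned with kidney 1 alone (43.7% against 48.3%) and with CPM not divided by length (44.3% against 48.05%). Pygm made up 9.57% ± 1.25 in TG+ and 11.2% ± 2.00 in TG- mice (exact permutation p = 0.300). Pgm1 rose from 79.7% ± 2.48 to 85.6% ± 0.712 of the phosphoglucomutase pair (exact permutation p = 0.1), a gain of 5.95 points that was 3.20 points when CPM not divided by length were used.

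**Figure D2:**
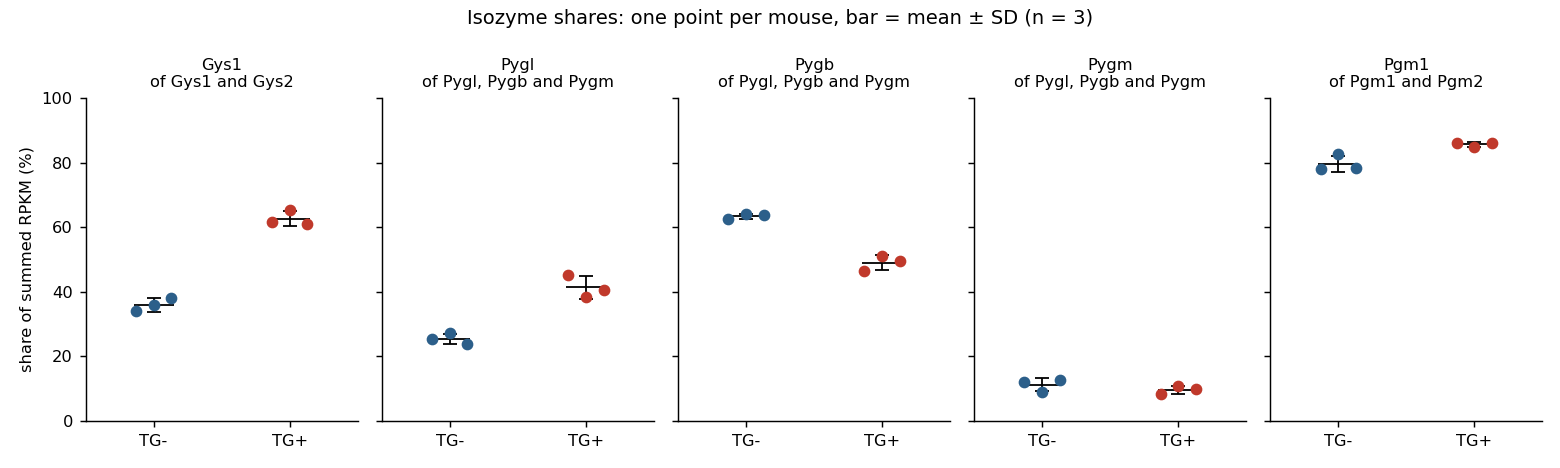
Share of summed RPKM in percent (vertical axis, 0 to 100) taken by Gys1 of the synthases, by Pygl, Pygb and Pygm of the phosphorylases and by Pgm1 of the phosphoglucomutases, with a point for each mouse in TG- (blue) and TG+ (red) and black bars for the mean ± SD of 3 mice. The Gys1 share lies between 33.9% and 38.1% in TG- and between 61.0% and 65.4% in TG+ mice.

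Gbe1 (ENSMUSG00000022707, chromosome 16 from 70313949 to 70569716), the branching enzyme, rose 2.51-fold, which is above the 1.90-fold of Gys1, although their ratio, given further on, overlapped between the groups. It stood at 142, 124 and 133 CPM in the TG+ mice and at 53.1, 55.8 and 50.0 CPM in the TG- mice. Every TG+ mouse lay at least 1.15 above every TG- mouse on the log2 scale, a gap wider than the spread within either group. Its mean was 133 ± 9.22 against 53.0 ± 2.91 CPM (SD, n = 3 mice), a log2 fold change of 1.33 (SE 0.07, edgeR adjusted p = 2.23e-05) that stayed between 1.27 and 1.45 under all 15 alternatives.

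Ppp1r3c (ENSMUSG00000067279, chromosome 19 from 36731731 to 36736653), the gene of PTG, showed the largest difference of the 10 genes. Its level was 30.1, 25.5 and 38.2 CPM in TG+ mice, from 1448 to 1920 reads each. In TG- mice it was 1.5, 1.72 and 1.78 CPM, from 77 to 98 reads each. The groups were separated by 3.84 on the log2 scale, while the spread between TG+ mice was 0.58. The mean of 31.3 ± 6.43 CPM in TG+ against 1.67 ± 0.146 CPM in TG- mice (SD, n = 3 mice) was an 18.8-fold increase (95% interval 14.2 to 24.7), or 4.23 on the log2 scale (SE 0.17, edgeR adjusted p = 6.39e-06). Of all 19399 tested genes 81 had a larger log2 fold change, and 15 did among those with at least 1 CPM in both groups. Per length, Ppp1r3c was the least abundant of the 10 genes in TG- mice at 0.629 ± 0.0511 RPKM and came after Ugp2 and Pgm1 in TG+ mice at 11.4 ± 2.37 RPKM, where its values overlapped those of Gys1, the next in order. Per kilobase of GENCODE M21 exons it held place 5 in TG+ mice, at 11.5 ± 2.36 CPM, below Gbe1 (24.9 ± 1.72) and Gys1 (19.2 ± 1.82) without overlap, so its place among the genes of TG+ mice depends on the gene length used.

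The genes whose level followed that of Ppp1r3c most closely over the 6 mice were sought among 16180 genes with an average of at least 1 CPM, by the root mean square difference of their log2 levels after each gene was centred on its own mean. The 5 nearest were Mab21l3 (0.16), Slc7a15 (0.20), Ppp1r3b (0.22), Stc2 (0.24) and Cybrd1 (0.27). Ppp1r3b encodes another subunit that targets protein phosphatase 1 to glycogen, the GL subunit known from liver. The log2 fold changes of Mab21l3, Stc2 and Cybrd1 were 4.33, 3.91 and 3.87. With a large difference between the groups, the measure of likeness is mostly set by that difference. Slc7a15 passed the limit of 1 CPM only through the TG+ mice (2.20 to 2.89 CPM against 0.0195 to 0.0876 CPM in TG- mice), so its likeness rests on the 0.1 CPM that was added before the logarithm.

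Among the phosphorylases, Pygl passed the full threshold, while Pygb and Pygm passed neither rule in the main comparison. Pygl (ENSMUSG00000021069, chromosome 12 from 70190811 to 70231488), the liver type, was measured at 37.1, 30.8 and 32.0 CPM in TG+ mice and at 14.8, 14.7 and 14.0 CPM in TG- mice. TG- mice lay close together, and all TG+ mice were above them by at least 1.05 on the log2 scale. The mean rose from 14.5 ± 0.477 to 33.3 ± 3.36 CPM (SD, n = 3 mice), a log2 fold change of 1.20 (SE 0.08, 95% interval 1.01 to 1.39, edgeR adjusted p = 8.57e-05). Of the 12 liver markers, Apoa1 and Ttr passed the full threshold and Tf passed at an adjusted p below 0.05, while Alb, Apob, Fga, Fgb, Fgg and Serpinc1 did not pass and Ahsg, Cps1 and Hamp were too low to be tested. The relation of these markers to Pygl was not tested.

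Pygb (ENSMUSG00000033059, chromosome 2 from 150786735 to 150831758), the brain type, was 34.2, 36.3 and 34.9 CPM in TG+ and 32.8, 30.9 and 33.1 CPM in TG- mice. The groups just failed to overlap, yet the log2 fold change of 0.12 did not pass the test (95% interval -0.0049 to 0.25, edgeR adjusted p = 0.141). The edgeR adjusted p was 0.0258 with scaling by library size alone, which also moved the median log2 fold change of all tested genes from 0.01 to 0.13. It was 0.0402 with each kidney taken as its own library, which counts the 2 kidneys of a mouse as independent. When the mouse was then kept as a random block (limma), the adjusted p was 0.161. Pygm (ENSMUSG00000032648, chromosome 19 from 6384399 to 6398459), the muscle type, was the rarest of the phosphorylases at 5.92, 7.51 and 6.81 CPM in TG+ and 6.24, 4.19 and 6.43 CPM in TG- mice. Its groups overlapped, with the TG- mouse 43-50 below the rest, and its log2 fold change of 0.27 had an interval from -0.14 to 0.67 (edgeR adjusted p = 0.297). Without 43-50 the log2 fold change of Pygm was 0.09. The skeletal muscle markers summed to 4.76 to 4.95 CPM in TG+ and 3.42 to 7.97 CPM in TG- mice, and 0 of the 3 that could be tested of 10 passed.

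Pairs of genes were compared within each mouse by the log2 ratio of their CPM, in 8 ratios. The ratio of Gys1 to Gys2 was 1.59 higher in TG+ than in TG- mice on the log2 scale, that of Pygl to Pygb 1.07, that of Pgm1 to Pgm2 0.60, that of Pgm1 to Ugp2 0.84, that of Gys1 to Ugp2 0.73 and that of Ppp1r3c to Gys1 3.29. For these 6 ratios the mice did not overlap (2-sided exact permutation test, p = 0.1 each and 0.133 after adjustment over the 8). Among single genes, 23.4% of all tested lay wholly higher and 20.8% wholly lower in TG+ mice, and no such share was computed for ratios. These ratios largely follow from the fold changes of the same genes given above, so they are no separate support. Gbe1 to Gys1 (0.40 higher) and Pygl to Gys1 (0.26 higher) overlapped between the groups (exact permutation p = 0.200 each, also after adjustment), in a test that leaves any pairing of the mice aside.

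The remaining levels per length can be put in order from the deposited RPKM. In TG+ mice Ugp2 and Pgm1 (30.7 ± 3.84 RPKM) stood above all others, then came Ppp1r3c, Gys1 (9.68 ± 0.933), Gbe1 (7.57 ± 0.510), Gys2 (5.75 ± 0.116), Pygb (5.17 ± 0.181), Pgm2 (5.14 ± 0.394), Pygl (4.37 ± 0.434) and Pygm (1.01 ± 0.121). Pygb and Pgm2 did not differ beyond their spread, and Pgm2 and Pygl overlapped as well. In TG- mice the order was Ugp2, Pgm1 (15.3 ± 1.04 RPKM), Gys2 (9.31 ± 1.22), Gys1 (5.23 ± 0.727), Pygb (4.88 ± 0.186), Pgm2 (3.89 ± 0.344), Gbe1 (3.08 ± 0.163), Pygl (1.95 ± 0.0604), Pygm (0.865 ± 0.189) and Ppp1r3c. Here Gys1 and Pygb overlapped, as did Pygm and Ppp1r3c. Per kilobase of GENCODE M21 exons Gbe1 moved up to place 3 in TG+ and place 5 in TG- mice, so places in the middle of the order depend on the gene length used.

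The 2 kidneys of a mouse gave nearly the same level for most of the 10 genes. Gys1, Pgm1 and Ugp2 differed between kidneys by at most 0.10 on the log2 scale in any mouse. The widest difference was that of Ppp1r3c in the TG- mouse 43-50, with 2.08 CPM in kidney 1 and 1.26 CPM in kidney 2, or 0.72 on the log2 scale, at a level where the reads were few. For 4 genes, Pgm2, Ugp2, Pygb and Pygm, the widest difference between kidneys exceeded the gap between the groups of mice. For the other 6 it was smaller than that gap.

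**Figure D3:**
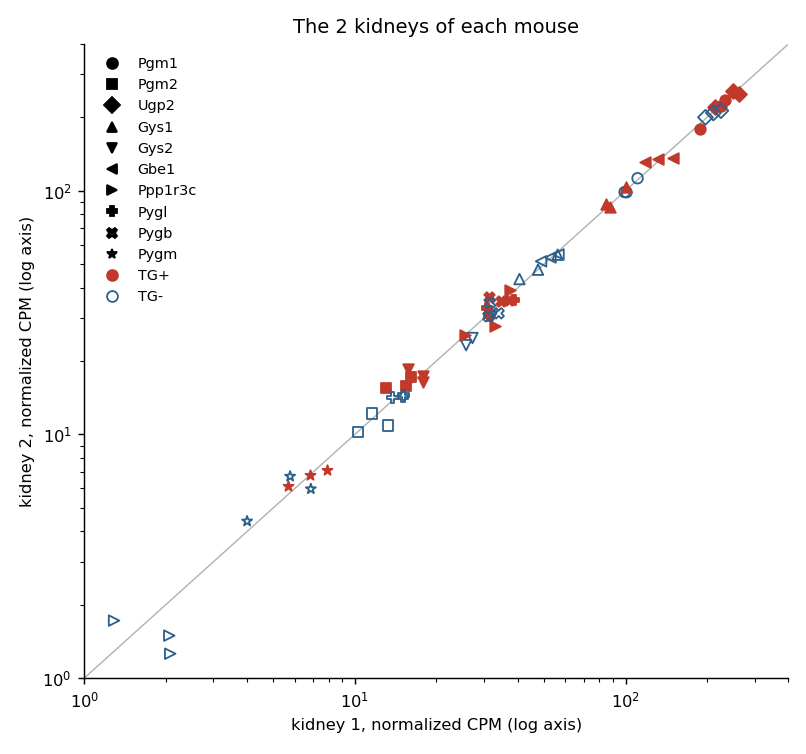
Normalized CPM in kidney 1 (horizontal log axis) and kidney 2 (vertical log axis) of each mouse for the 10 glycogen genes, with a symbol for each gene, filled red for TG+ and open blue for TG- mice, and a line of equality. Points lie near the line at all levels, and the TG- points of Ppp1r3c between 1 and 3 CPM lie farthest from it.

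The wider pathway was covered by 36 further genes, of which 35 could be tested. By the full threshold 2 (5.7% of those tested) were higher in TG+ cortex and 0 were lower, beside 3.77% and 0.211% of all tested genes. With an adjusted p below 0.05 alone 6 were higher and 6 lower (17.1% each), beside 15.4% and 10.9% of all tested genes, so that as a group they lay near the background, with a median log2 fold change of -0.02. Both genes past the full threshold encode glycogen-targeting subunits of protein phosphatase 1, as Ppp1r3c does. Ppp1r3b was measured at 22.7, 19.5 and 31.6 CPM in TG+ and at 1.70, 1.23 and 1.68 CPM in TG- mice. Its log2 fold change was 4.01 (SE 0.22, edgeR adjusted p = 2.67e-05), close to that of Ppp1r3c. For Ppp1r3g, a subunit known from liver, TG+ mice held 153, 185 and 178 reads and TG- mice 2, 0 and 0. At normalized depth the ratio of these reads was 259 (95% exact interval 71.4 to 2148, for counting error only). Ppp1r3g passed the filter on low counts only through the TG+ mice, where it is high, so that its passing the threshold adds nothing to these reads. It is included in the counts of higher genes given above, and with Ppp1r3g set aside Ppp1r3b alone passed the full threshold.

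The other subunits of this family behaved otherwise. Ppp1r3a, the muscle form, had 19 reads over all libraries and was not tested. Ppp1r3d (0.44, edgeR adjusted p = 0.0710) and Ppp1r3e (0.17, edgeR adjusted p = 0.238) did not pass, though Ppp1r3d was higher in each TG+ mouse (1.60 to 1.95 CPM) than in any TG- mouse (1.23 to 1.33 CPM) and passed 0.05 under 3 alternatives (edgeR adjusted p = 0.0308 with scaling by library size alone). Ppp1r3f fell by 0.26 on the log2 scale (edgeR adjusted p = 0.0161), a call that did not hold with scaling by library size alone, without 43-75 or without 43-50. The catalytic subunits they bind did not pass, with log2 fold changes from -0.08 for Ppp1ca to 0.04 for Ppp1cb.

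**Figure D4:**
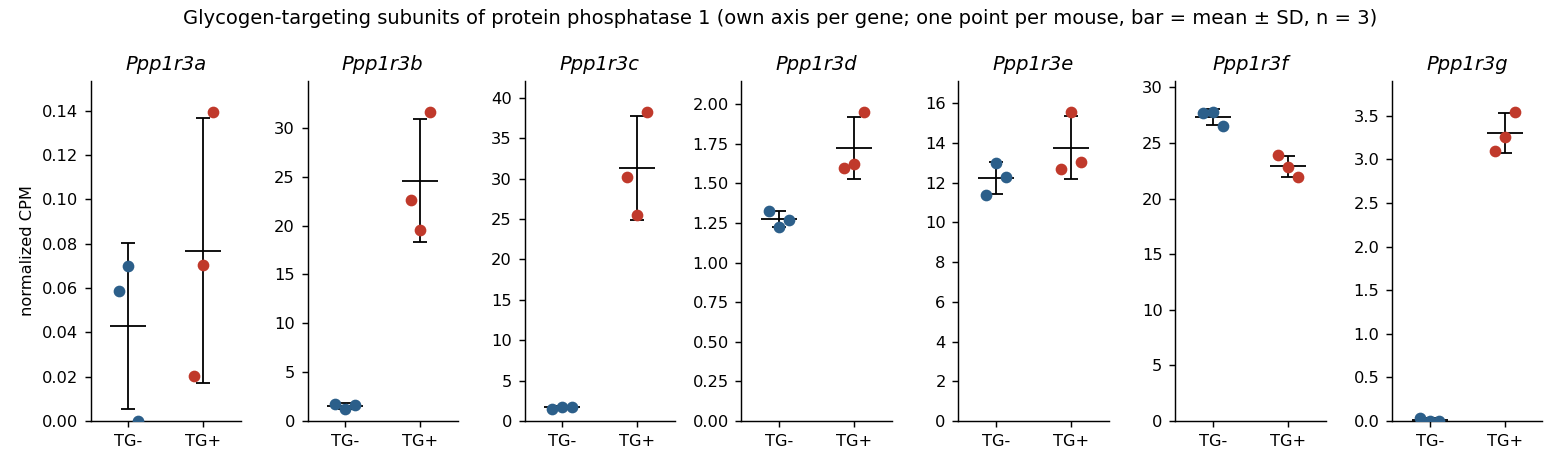
Normalized CPM (vertical axes, each from 0 and on its own scale) of the 7 glycogen-targeting subunits of protein phosphatase 1, with a point for each mouse in TG- (blue) and TG+ (red) and black bars for the mean ± SD of 3 mice. Ppp1r3b, Ppp1r3c and Ppp1r3g stand near the bottom of their axes in TG- mice and far above in TG+ mice, whereas Ppp1r3a stays below 0.2 CPM.

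Other steps of glycogen handling showed smaller fold changes. Genes named from here on other than the highest and lowest of a list were picked with their values in view. Stbd1, which tethers glycogen to membranes, rose from 17.6 ± 0.806 to 31.1 ± 4.85 CPM (SD, n = 3 mice), a log2 fold change of 0.82 (edgeR adjusted p = 0.00201). Gaa, the acid glucosidase that degrades glycogen in lysosomes, fell by 0.32 on the log2 scale (edgeR adjusted p = 0.00566). Glycogenin (Gyg), which primes a new glycogen particle, did not pass (-0.12, edgeR adjusted p = 0.273). Of the 9 kinase genes that act on phosphorylase or synthase, 0 were higher and 2, Phka2 and Prkaca, were lower at an adjusted p below 0.05, beside 15.4% and 10.9% of all tested genes, but neither passed with scaling by library size. Prkaca also lost its call when any single mouse was left out, and Phka2 when any mouse but 43-26 was. All 9 had values below 0, from -0.22 for Phkb, which passed 0.05 under 6 alternatives (adjusted p = 0.0269 with DESeq2), to -0.01 for Gsk3a, but 5 of them turned above 0 under scaling by library size alone. Laforin (Epm2a, 0.28, edgeR adjusted p = 0.0558) and malin (Nhlrc1, 0.11, edgeR adjusted p = 0.657), which guard the structure of glycogen, did not pass, although Epm2a passed 0.05 under 4 alternatives (edgeR adjusted p = 0.0143 with scaling by library size alone).

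Around glucose 6-phosphate and the UDP-sugars, 3 of 12 genes rose and 2 fell at an adjusted p below 0.05, beside 15.4% and 10.9% of all tested genes, so that these counts lay near the background. Pgm2l1, which makes glucose 1,6-bisphosphate, the cofactor of phosphoglucomutase, rose by a log2 fold change of 0.63 (edgeR adjusted p = 0.0380), and the call was lost without 43-49, 43-75, 43-26 or 43-76. Slc37a4, the carrier of glucose 6-phosphate into the endoplasmic reticulum, rose by 0.33 (edgeR adjusted p = 0.00370), while G6pc, the phosphatase it feeds, stood at 530 to 640 CPM in TG+ and 661 to 837 CPM in TG- mice (-0.33, edgeR adjusted p = 0.0512), and it passed 0.05 under 6 alternatives, among them DESeq2 (adjusted p = 0.00866) and upper-quartile scaling (edgeR adjusted p = 0.0430). Galk1, which phosphorylates galactose, rose by 0.62 (edgeR adjusted p = 0.000955). Pgm3, a mutase of the hexosamine pathway, fell by 0.43 on the log2 scale (edgeR adjusted p = 0.00321), and Galt, the next enzyme after Galk1, fell by 0.29 on that scale (edgeR adjusted p = 0.0137), a call that was lost with scaling by library size alone.

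**Figure D5:**
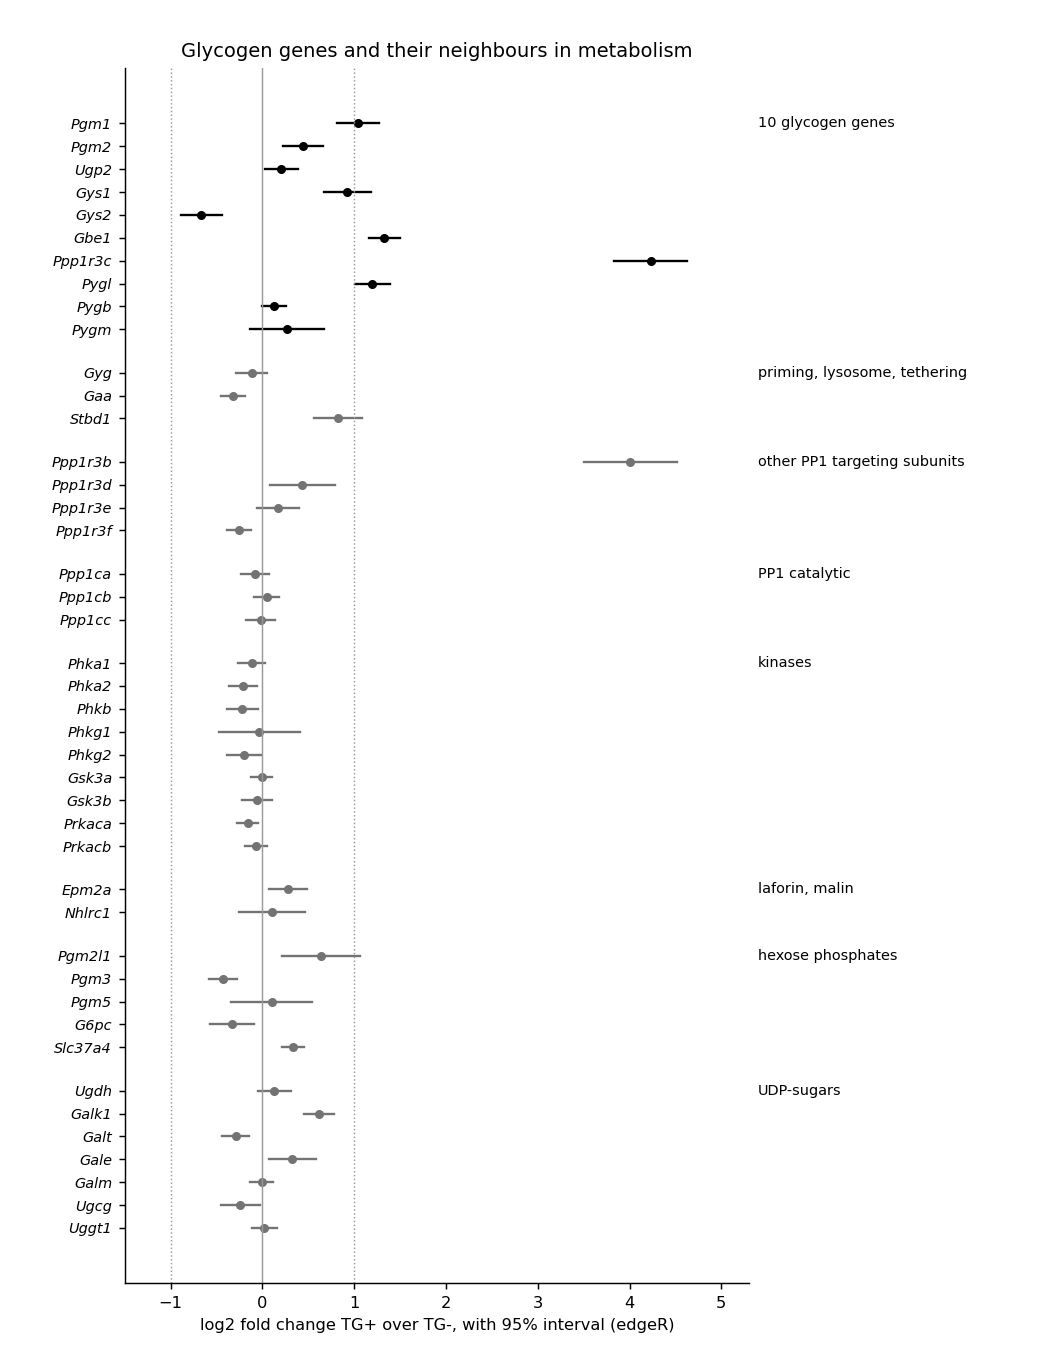
Log2 fold change of TG+ over TG- (horizontal axis) with its 95% interval from edgeR for the 10 glycogen genes (black) and 33 further genes of the pathway (grey), grouped by role, where the solid line marks no change and dotted lines mark 2-fold. Ppp1r3c (4.23) and Ppp1r3b (4.01) stand far to the right of all others drawn. Ppp1r3g is left out since TG- mice held only 2 of its reads, and 1 further tested gene is not shown.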

How the data were processed

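RNAseq was analysed in kidney cortex of 3 TG+ and 3 TG- mice with 2 libraries per mouse. Reads of the authors were single-end, 51 bp long, and were processed mainly with Tuxedo tools; the submitters' processing notes name the build mm9, and the counter and its use of strand are not given in the sources used here. The deposited table holds raw read counts and RPKM per Ensembl gene and library, and the authors made these RPKM by a scaling named BUQ in the header, with 1 added to each count. Its fold changes, p-values and q-values of the authors' own comparison, and its log2 RPKM columns, were not used.

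Counts of the 2 kidneys of a mouse were summed, filtered (filterByExpr), scaled by TMM and tested with edgeR 4.0.16 (limma 3.58.1, R 4.3.3) by the quasi-likelihood test, with Benjamini-Hochberg adjustment over 19399 of 37681 genes; DESeq2 1.42.0 was an alternative. The SE is the absolute log2 fold change over the square root of F. The scripts were tested on simulated data. Symbols, gene positions and exon lengths came from GENCODE M21 (GRCm38; 86.6% of rows matched), so they are not in the mm9 build of the files. Isozyme shares used RPKM averaged over both kidneys. Exact permutation tests ran over the 20 assignments of mice. The mice are separate animals. Named genes were the 10 members, the called genes of the wider pathway with the highest and lowest of each list, and the 5 patterns nearest to that of Ppp1r3c (pseudocount 0.1 CPM); a few further genes were named with their values in view, as said beside them. The counts over the wider pathway include 1 gene that is not reported here by name. Members and lists were chosen with earlier results of these data known.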

Additional observations from a re-analysis of the deposited data

How the results depend on the processing

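The number of glycogen genes called higher was 4 with DESeq2, with upper-quartile scaling, without the low-count filter, with each kidney as its own library, with either kidney alone and with the mice paired, and 5 with library size alone, where Gys1 was added and the median of all genes moved from 0.01 to 0.13 on the log2 scale. It was 3 to 5 when a mouse was left out, as Pgm1 was lost without 43-29 and Gys1 gained without 43-50. Without the fold limit, at an adjusted p below 0.05, 1 glycogen gene was lower, and 6 of the further pathway genes were higher and 6 lower. Of these, 5 and 2 passed under every alternative, and the 5 include Ppp1r3g, which passed the filter on low counts only through the TG+ mice. No log2 fold change of the 10 genes changed sign under any of 15 alternatives. Of the 15, the edgeR fit with each kidney as its own library counts the 2 kidneys of a mouse as independent, so its p-values are too small. Over all genes, 732 were called higher and 469 to 633 when a mouse was left out, the lowest without 43-76, while 41 were called lower and 22 with library size alone. The cause of these changes was not tested, beyond the smaller number of mice in the fits that leave out a mouse. The name of the deposited table pairs the mice (43-26 with 43-29, 43-49 with 43-50, 43-75 with 43-76). Deviations of paired mice correlated at 0.337, 0.296 and -0.0236, and those of mice not paired at -0.347 to 0.0358. The values 0.337 and 0.296 thus lie above every value of mice not paired, while -0.0236 does not. What the pairs share is not given in the labels, so the pairing was used only as an alternative. With it as a replicate block, 4 glycogen genes, 779 genes higher and 46 lower were called. Depth limits Ppp1r3c and Ppp1r3g in TG- mice, where reads are few.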
